A study of Mus musculus with 8 samples.

Results

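The 10 genes described here encode adipogenic transcription factors, the DNA-binding proteins that turn precursor cells into fat cells and keep mature fat cells in their state. They were chosen by name: Pparg, Rxra, Cebpa, Cebpb, Cebpd, Ebf1, Ebf2, Klf15, Zfp423 and Nr1h3. All 10 were measured, by 20 of 45037 probe sets, and each gene was represented by its probe set with the highest mean over the arrays, as were all 18193 genes tested. The tissue was inguinal white fat, a subcutaneous depot of the groin, from male littermates on a C57BL/6 background aged 12 weeks and fed standard chow. The KO group held 4 mice hemizygous for a deficient allele of Lpar4 (Lpar4 -/Y), an X-linked receptor for lysophosphatidic acid, and the WT group held 4 wild-type mice. The labels name no cell type to which the deficiency was restricted. Each array is labelled as a separate biological replicate. Values are log2 signals, and a difference is KO minus WT on that scale.

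In the textbook account, C/EBPβ and C/EBPδ appear early after an adipogenic stimulus and raise PPARγ and C/EBPα, which then raise each other and the genes of lipid storage. PPARγ binds DNA as a heterodimer with RXRα, and LXRα, the product of Nr1h3, uses the same partner to sense oxysterols. Zfp423 marks committed precursors, the early B cell factors EBF1 and EBF2 act upstream of and beside PPARγ, and KLF15 is a glucocorticoid-induced factor of adipocytes, liver and muscle.

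Arrays give no read depth, so precision is limited by how many there were. The arrays had medians of 6.73 to 6.74. Over the arrays 78.7% of all probe sets had an SD under 0.01. They are called near constant here, the others varying, and why they hardly moved is not known here. Of the 3 probe sets of Lpar4, 1452424_at was lower in KO (5.81 ± 0.07 against 6.93 ± 0.10, SD, n = 4 each). The other 2, 1439665_at and 1434186_at, were higher by 0.53 and 0.71, with every KO array above every WT array. The brightest of the 3 was 1439665_at. Mature adipocyte markers were bright, with adiponectin (Adipoq) at percentile 99.99 of all probe sets, and of 9 B cell markers 0 varied. Skeletal muscle markers parted the arrays by replicate number in both genotypes, with means of 8.59 to 9.26 in numbers 1 and 2 and 6.52 to 7.14 in numbers 3 and 4.

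The RefSeq promoter table (GRCm38.p6) held 14 start sites for 8 of the 10 genes. The bases before the start are shown for the members with the largest differences and for Pparg, the gene on which the others converge. Matches on either strand are in capitals. In Rxra, at chr2:27676951-27677200 on the plus strand, the first start listed, they mark the GC box GGGCGG or its reverse complement. In Pparg, at chr6:115421816-115422065 on the plus strand, the third start listed, they mark the C/EBP letters TTGCNNAA and the CCAAT box. In Cebpa, at chr7:35119043-35119292 on the plus strand, they mark the TATA box TATAAA.
Rxra: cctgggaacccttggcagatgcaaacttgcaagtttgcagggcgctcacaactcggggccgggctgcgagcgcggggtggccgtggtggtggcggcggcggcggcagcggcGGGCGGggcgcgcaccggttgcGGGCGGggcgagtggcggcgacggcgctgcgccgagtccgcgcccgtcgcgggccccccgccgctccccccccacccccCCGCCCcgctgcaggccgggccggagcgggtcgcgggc
Pparg: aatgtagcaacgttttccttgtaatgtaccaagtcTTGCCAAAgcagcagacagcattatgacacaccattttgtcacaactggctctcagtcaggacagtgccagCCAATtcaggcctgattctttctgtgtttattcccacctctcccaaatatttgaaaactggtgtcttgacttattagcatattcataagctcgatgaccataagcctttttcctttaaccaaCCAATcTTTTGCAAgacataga
Cebpa: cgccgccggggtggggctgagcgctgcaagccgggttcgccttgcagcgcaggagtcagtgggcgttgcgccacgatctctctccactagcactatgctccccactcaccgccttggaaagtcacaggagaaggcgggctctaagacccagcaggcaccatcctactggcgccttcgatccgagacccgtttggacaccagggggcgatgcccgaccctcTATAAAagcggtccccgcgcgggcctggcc

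The promoters differed in make-up. The Rxra window was 81.2% G or C and held 3 GC boxes, the first bases of which lie 139, 117 and 38 bases before the start. The Pparg window was 40.8% G or C, with C/EBP letters at 215 and 16 bases before the start and CCAAT boxes at 144 and 22 bases. The last CCAAT box does not overlap the C/EBP match beside it. The Cebpa window was 66.4% G or C, with the TATA box 30 bases before the start. Of the 14 member windows of 250 bases, 2 held TTGCNNAA, in Pparg and Zfp423, against 9.56% of all 32851 windows in the table. GGGCGG was in 7 of 14 against 32.7%, CCAAT in 3 against 33.9% and TATAAA in 2 against 12.4%. A match is only a run of letters, and binding was not measured in these mice.

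No single adipogenic factor was called in the test over all genes. Of the 10 genes 0 passed in limma (Benjamini-Hochberg adjusted p under 0.05 over 18193 genes), where 4.03% of all genes did, a share at which a count of 0 among 10 says nothing particular about them. At an unadjusted p under 0.05 there were 2, Pparg and Rxra, against 22.9% of all genes. With the replicate number as a block 1 member, Rxra, had an unadjusted p under 0.05, as did 3703 of all genes, and at the adjusted threshold 0 members and 0.00% of all genes passed. The differences ran from -0.30 (Rxra) to 0.34 (Cebpa), 5 above and 5 below 0, with a median of 0.0065 against 0.000029 over all genes. Over the 9 varying members the median was 0.01, as it was over all 5173 varying genes. Among varying genes alone 1 of 9 members passed, Rxra, where 27.1% of genes did, or 12.2% in its direction. With the replicate block it was again 1 of 9, against 19.5% of varying genes (10.3% higher and 9.24% lower in KO). In the unblocked fit of varying genes Rxra alone among the members had an unadjusted p under 0.05, against 43.6% of these genes.

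**Figure D1:**
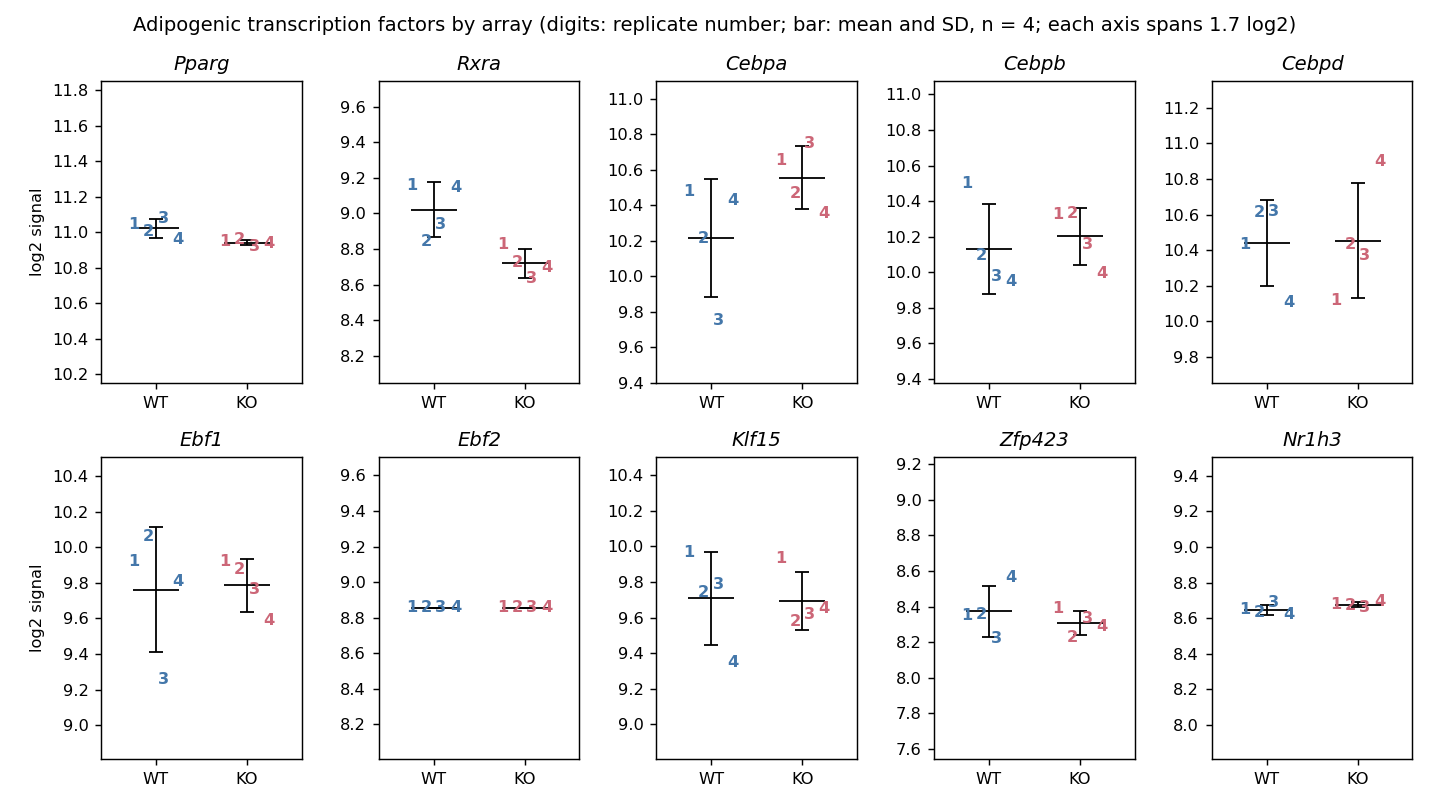
Log2 signal (vertical axis) of each of the 10 genes in WT and KO, with digits for the replicate numbers and bars for the mean and SD of 4 arrays. Every axis spans the same range, so the narrow spread of Pparg, Nr1h3 and Ebf2 and the low Cebpa and Ebf1 values of WT 3 can be compared directly.

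Rxra and Pparg, the genes of the RXRα and PPARγ heterodimer, each had all KO arrays below all WT arrays, by unlike amounts. Groups lay apart in 16.2% of all genes and 33.2% of varying genes. At these shares, 2 of 10 members says nothing particular about the pair. Rxra read 8.83, 8.73, 8.63 and 8.70 in KO 1 to 4 and 9.16, 8.84, 8.94 and 9.15 in WT 1 to 4. The gap between the highest KO and the lowest WT array was 0.016. The KO mean was 8.72 ± 0.08 and the WT mean 9.02 ± 0.16 (SD, n = 4). They differed by -0.30 ± 0.09 (SE), or 0.812 times the WT level (95% interval 0.704 to 0.937). In limma Rxra did not pass over the full set of genes (adjusted p = 0.106), but it did among varying genes, with 0.0345 unblocked and 0.0427 blocked. The exact 2-sided permutation p was 0.0286, the smallest that 4 against 4 arrays can give. Any gene whose groups do not overlap gets this value, so it adds nothing to the lack of overlap. Numbers 1 and 2 alone gave -0.22, and numbers 3 and 4 alone gave -0.38.

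Pparg, the receptor without which fat cells do not form, read 10.95, 10.96, 10.92 and 10.94 in KO and 11.04, 11.005, 11.08 and 10.96 in WT. The groups did not overlap, but the gap between KO 2 and WT 4 was 0.0020. The difference was -0.08 ± 0.03 (SE), or 0.946 times the WT level (95% interval 0.905 to 0.988). It did not pass in limma over all genes (adjusted p = 0.141), among varying genes (0.181) or there with the block (0.254), and its exact permutation p was 0.0286. Its SD over the arrays, 0.056, was at percentile 4.66 of varying genes. By its suffix the probe set recognises several transcripts of the gene, so the isoforms are not told apart. Groups did not overlap in 2 of the 10 members, both lower in KO, and 0 were higher. Among all genes 16.2% did not overlap, 9.20% higher and 7.00% lower, and among varying genes 33.2%, 18.2% higher and 15.0% lower.

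The other 2 Rxra probe sets were near constant. Probe set 1425762_a_at was also lower in all KO arrays, but by -0.0043, and 1430497_at differed by -0.000043 with overlapping groups. Averaging the 3 probe sets brought the Rxra difference to -0.10, with an adjusted p of 0.104. In a whole depot, fewer cells of a type and less RNA per cell cannot be told apart.

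Nr1h3, the LXRα gene, differed in the other direction and by little. It read 8.68, 8.67, 8.66 and 8.70 in KO and 8.65, 8.63, 8.69 and 8.62 in WT, so WT 3 was within the KO range. The difference was 0.03 ± 0.02 (SE), with a 95% interval of -0.0076 to 0.0677 and an adjusted p of 0.315. Its spread was smaller still than that of Pparg, at percentile 1.31 of the SDs of varying genes. Macrophages also express Nr1h3. Of 19 macrophage markers 0 passed in limma (1 at an unadjusted p under 0.05), and their log2 values summed to 175.6 to 177.9 in KO and 162.0 to 182.5 in WT, with 0 of the 19 under percentile 25. The fit of varying genes called 1, Cd9, which was lower (-0.57, adjusted p = 0.0229 unblocked and 0.0246 blocked). Of the 17 varying markers 15 were higher in KO on average, as were 52.3% of varying genes, with a median of 0.31. Over all 19 the mean differed by -0.18 in numbers 1 and 2 and by 0.62 in numbers 3 and 4. The part of these markers in the Nr1h3 value was not tested.

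The C/EBP family had the highest difference among the members, in Cebpa, but with wide error. Cebpa, which holds adipocytes in the mature state, read 10.65, 10.47, 10.75 and 10.35 in KO. In WT it read 10.48, 10.21, 9.75 and 10.42. Only KO 1 and KO 3 were above all WT arrays, and WT 3 was the lowest of all. The difference was 0.34 ± 0.18 (SE), or 1.26 times the WT level, with a 95% interval of 0.931 to 1.72 times. Neither limma (adjusted p = 0.334, or 0.153 when only varying genes were fitted) nor the exact permutation test (p = 0.143) passed. Without WT 3 the difference was 0.18, over 1.5 times smaller. That array also had the lowest mean of the macrophage markers (8.53, against 8.92 to 9.60 in the other WT arrays) and of the adipose progenitor markers (8.73, against 8.95 to 9.05), and the part of these in its Cebpa value was not tested.

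Cebpb and Cebpd, the early inducers, gave small differences that did not pass. For Cebpb, numbers 1 and 2 gave 0.03 and numbers 3 and 4 gave 0.11. Cebpb read 10.33, 10.33, 10.16 and 9.995 in KO and 10.50, 10.10, 9.97 and 9.95 in WT, and the WT arrays spanned the whole KO range. Its difference was 0.07 ± 0.15 (SE; limma adjusted p = 0.821), and its dimmer probe set 1427844_a_at gave 0.04 ± 0.12. Cebpd read 10.12, 10.43, 10.37 and 10.90 in KO and 10.43, 10.61, 10.62 and 10.11 in WT. KO 4 was the highest of the arrays and WT 4 the lowest, and the difference was 0.01 ± 0.20 (SE; adjusted p = 0.977). Numbers 1 and 2 gave -0.25, numbers 3 and 4 gave 0.27. The 95% intervals of the fold, 0.823 to 1.34 for Cebpb and 0.726 to 1.40 for Cebpd, leave room for changes in either direction.

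**Figure D2:**
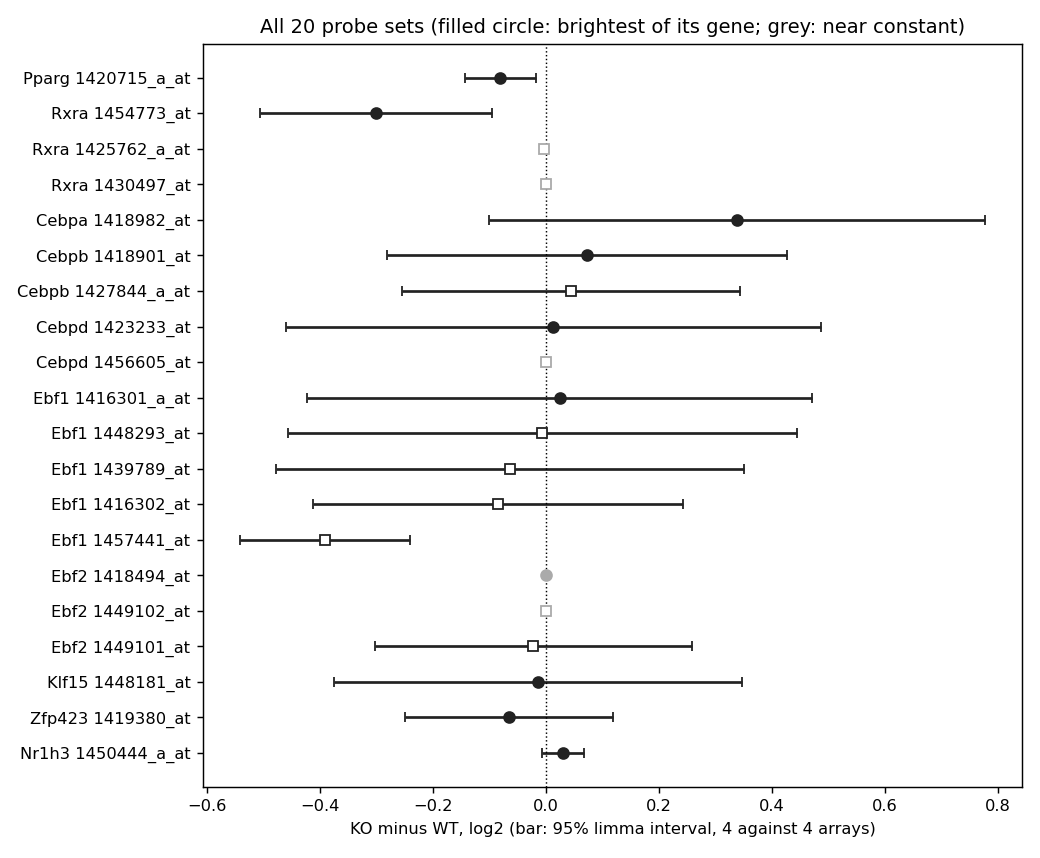
KO minus WT difference in log2 (horizontal axis) with its 95% limma interval for each of the 20 probe sets, with filled circles for the brightest of each gene and grey for near-constant sets. The intervals of Rxra 1454773_at, Pparg and Ebf1 1457441_at lie below 0, whereas the other varying sets cross it.

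Ebf1, on chromosome 11 from 44618100 to 45008096 (GRCm38.p6), encodes an early factor of both adipocytes and B cells. It was the only member whose probe sets disagreed on a call over all probe sets. Its brightest probe set, 1416301_a_at, read 9.92, 9.87, 9.76 and 9.59 in KO and 9.92, 10.06, 9.26 and 9.81 in WT. The groups overlapped and differed by 0.02 ± 0.19 (SE; limma adjusted p = 0.956 over all genes). Without WT 3 this became -0.14. The next 3 probe sets, 1448293_at, 1439789_at and 1416302_at, differed by -0.0067, -0.06 and -0.09, also with overlap. The dimmest, 1457441_at, read 6.34, 6.39, 6.26 and 6.49 in KO and 6.72, 6.66, 6.82 and 6.85 in WT. Here every KO array was below every WT array, with a gap of 0.17.

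That probe set fell by 0.39 ± 0.06 (SE, n = 4 against 4), passing in limma over the 45037 probe sets (adjusted p = 0.0443) and among varying sets, where the value was 0.0104 unblocked and 0.0327 blocked. With the block over all probe sets it did not pass (adjusted p = 0.150), nor with any single array left out, where 0 of the 20 sets passed. It was thus 1 of the 20 member probe sets called, against 1.91% of all and 0.926% in its direction. Among varying probe sets 2 of 15 were called, with Rxra 1454773_at as the other, against 25.6% (13.2% lower), and 2 with the block, against 16.2% (7.92% higher and 8.32% lower). Groups did not overlap in 4 of the 20 sets, all lower in KO, against 13.8% of all probe sets in either direction. Of the 15 varying sets it was 3, against 32.5%.

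The 5 Ebf1 probe sets fell into a set of 4 and the dim one also within genotypes. Deviations from the genotype means correlated at 0.92 to 0.97 among the 4 brighter sets over the 8 arrays, and at -0.67 to -0.50 between these and 1457441_at. All 4 brighter sets had their lowest value in WT 3 (9.26, 9.14, 8.70 and 8.81, from brightest to dimmest). The part of that 1 array in these correlations was not tested. The mean of 1457441_at was at percentile 41.9 of all probe sets, and those of the other 4 were at 90.8 to 94.6. Where the probes of 1457441_at lie in the gene is not known here. Of 9 B cell markers, a cell type that depends on Ebf1, 0 passed in limma (0 at an unadjusted p under 0.05), and all 9 were near constant.

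**Figure D3:**
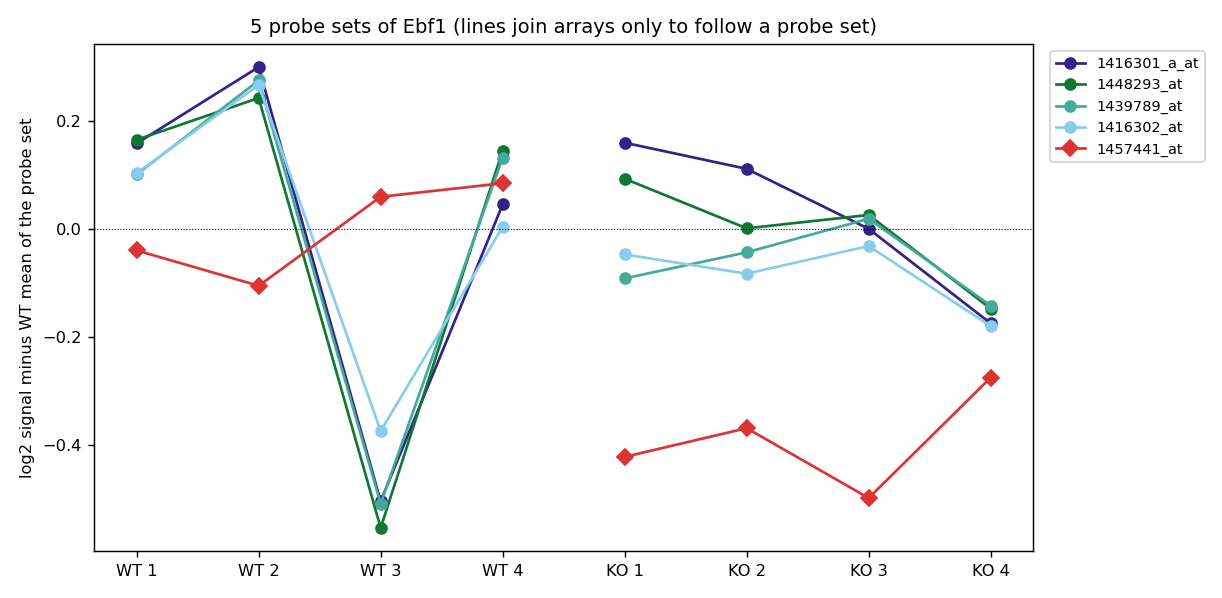
Log2 signal of the 5 Ebf1 probe sets in each array, minus the WT mean of the same probe set. The 4 brighter sets are low together in WT 3, whereas 1457441_at (red) is low in the 4 KO arrays.

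Ebf2, an EBF protein of brown and beige precursors, had 2 near-constant probe sets. The brightest, 1418494_at, was at 8.86 in all arrays (SD 0.00013), so it carried no measurable difference. The one varying set, 1449101_at, read 7.11, 7.24, 7.19 and 7.38 in KO and 7.56, 7.17, 7.10 and 7.17 in WT. The groups overlapped, with a difference of -0.02 ± 0.12 (SE; limma adjusted p = 0.942). Zfp423, the zinc finger protein of committed precursors, read 8.39, 8.22, 8.33 and 8.29 in KO and 8.35, 8.35, 8.22 and 8.56 in WT. WT held both the highest and the lowest array. The difference was -0.07 ± 0.08 (SE; adjusted p = 0.667). Among 16 adipose progenitor markers 0 passed over all genes (3 at an unadjusted p under 0.05), with a median difference of 0.02.

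Klf15, induced by glucocorticoids and linked to amino acid and glucose use, read 9.93, 9.58, 9.62 and 9.65 in KO and 9.96, 9.74, 9.79 and 9.34 in WT. Number 1 was the highest in both genotypes and WT 4 the lowest of all. The difference was -0.01 ± 0.15 (SE; limma adjusted p = 0.967), with a 95% interval of 0.771 to 1.27 times the WT level. Muscle expresses Klf15 too. Of 18 skeletal muscle markers 0 passed (0 at an unadjusted p under 0.05), and their log2 values summed to 117.3 to 166.7 in KO and 118.3 to 160.2 in WT, with 0 under percentile 25; their part in the Klf15 value was not tested.

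**Figure D4:**
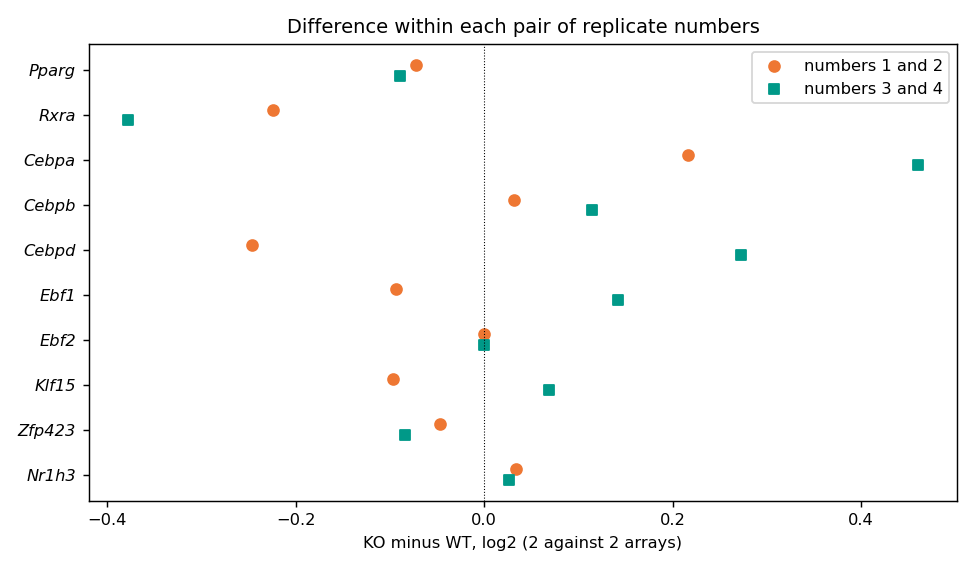
KO minus WT difference in log2 of each gene, computed from replicate numbers 1 and 2 (circles) and from numbers 3 and 4 (squares). Rxra, Pparg, Cebpa, Cebpb, Zfp423 and Nr1h3 keep their side of 0, Cebpd, Ebf1 and Klf15 change it, and Ebf2 sits at 0.

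Known target genes of these factors moved in both directions. The lists were chosen with earlier results of these data known and share members. Every rise and fall given for them is a limma call over all genes without the replicate block. With it no gene passed, and the adjusted p of the called genes named here was 0.0685 (Mccc1) to 0.175 (Adipoq). Of 27 measured PPARγ targets 2 rose, against 2.39% of all genes in that direction, and 0 fell. They were glycerol-3-phosphate dehydrogenase Gpd1 (0.63 ± 0.09, SE) and Adipoq (0.25 ± 0.05). Among varying genes with the block Gpd1 passed (adjusted p = 0.0227) and Adipoq did not (0.0534). The glucose transporter Slc2a4 (0.45, limma adjusted p = 0.0690) and the adiponectin receptor Adipor2 (-0.29, 0.0653) did not pass, though each group lay apart, above WT for Slc2a4 and below it for Adipor2. When only varying genes were fitted both passed, unblocked (adjusted p = 0.0181 and 0.0220) and blocked (0.0408 and 0.0392). The fatty acid carriers Fabp4 and Cd36 were near constant at 13.49 and 13.46. The median difference of the list was 0.02. Unblocked, the fit of varying genes called 5 of the 23 varying targets higher and 2 lower, against 14.9% and 12.2% of varying genes. Blocked, it called 2 higher and 1 lower, against 10.3% and 9.24%. The count of calls in each direction depended on the setting. After quantile normalisation of the arrays 1 of the 27 rose and 3 fell. When arrays 1 and 2 of each genotype formed a block and arrays 3 and 4 the other, 1 rose and 1 fell.

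Of 11 C/EBP targets 1 rose, against 2.39% of all genes, and 3 fell, against 1.64%. Haptoglobin (Hp), an acute phase protein also made by fat, fell by 0.86 ± 0.08 (SE), with a WT mean of 13.12 ± 0.12 and a KO mean of 12.26 ± 0.12 (SD, n = 4). Lcn2 and the desaturase Scd1 also fell (-0.51 and -0.09), and resistin Retn rose (0.26). Lcn2 was dim, with a mean of 6.24 in KO and 6.75 in WT, at percentile 38.2 of all probe sets. Scd1 was near the top of the scale, with 14.06 in KO and 14.14 in WT. Scd1 did not pass among varying genes (adjusted p = 0.120). Unblocked, the fit of varying genes called 1 of the 9 varying C/EBP targets higher and 3 lower, against 14.9% and 12.2% of varying genes. Blocked, it called 2 higher and 5 lower, against 10.3% and 9.24%. Of 14 LXR targets 0 rose and 3 fell, namely the apolipoproteins Apoe (-0.20 ± 0.03, SE) and Apoc1 (-0.30 ± 0.06) and Scd1. Apoe was also called in the fit of varying genes (adjusted p = 0.0182), though no longer once that fit was blocked (0.0515). Fasn, the fatty acid synthase, had the largest difference of the list, in the other direction. It read 10.94, 10.47, 10.72 and 11.21 in KO and 9.74, 9.43, 9.91 and 10.13 in WT, so every KO array was above every WT array. The difference of 1.03 ± 0.21 (SE) missed the threshold over all genes (limma adjusted p = 0.0521) and passed in the fit of varying genes (0.0117 unblocked, 0.0148 blocked). Unblocked, that fit called 2 of the 12 varying LXR targets higher and 2 lower, against 14.9% and 12.2% of varying genes. Blocked, it called 1 higher and 1 lower, against 10.3% and 9.24%. The cholesterol exporters Abca1 and Abcg1 differed by 0.13 and -0.32 without passing over all genes.

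Of 10 KLF15 targets 1 rose, against 2.39% of all genes, and 0 fell, against 1.64%. Mccc1, a subunit of a leucine-breakdown carboxylase, averaged 10.70 ± 0.15 across KO and 9.98 ± 0.21 across WT arrays (SD, n = 4), a rise of 0.71 ± 0.13 (SE; adjusted p = 0.0402). All 9 varying members of the list were higher in KO on average, from 0.05 to 0.71, as were 52.3% of varying genes. The list median was 0.22. The list mean differed by 0.35 in numbers 1 and 2 and by 0.14 in numbers 3 and 4. In numbers 3 and 4 only Prodh (-0.21) and Bckdha (-0.09) of the varying members were lower in KO. Unblocked, the fit of varying genes called 4 of the 9 higher and 0 lower, against 14.9% and 12.2% of varying genes. Blocked, it called 2 higher and 0 lower, against 10.3% and 9.24%. Klf15 itself differed by -0.01. Of 16 glucocorticoid response genes 0 rose and 1 fell, Lcn2. The median of that list was -0.27, and its mean level was 10.17 ± 0.18 in KO and 10.50 ± 0.10 in WT, with KO 4 (10.42) above WT 2 (10.40). The fit of varying genes called 4 of its 15 varying members lower unblocked, against 12.2% of varying genes, and 4 blocked, against 9.24%. Both counts include the metallothionein Mt2 (-0.96) and the cell cycle inhibitor Cdkn1a (-0.92).

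Of 53 measured regulators of adipogenesis outside the 10 members 0 passed in limma, against 4.03% of all genes, with a median of -0.000059. At an unadjusted limma p under 0.05 there were 11, against 22.9% of all genes. Tle3, whose product works with PPARγ, read 8.33 ± 0.17 in KO and 8.82 ± 0.18 in WT without overlap (-0.49 ± 0.12, SE, limma adjusted p = 0.0788). The fit of varying genes called it, at 0.0204 unblocked and 0.0242 blocked. Of the 31 varying regulators that fit called 2 higher and 1 lower unblocked, against 14.9% and 12.2% of varying genes. Blocked, it called 0 higher and 2 lower, against 10.3% and 9.24%. The 2 higher ones were Zfp467 (0.43, adjusted p = 0.0280 unblocked and 0.0812 blocked) and the C/EBP family member Cebpg (0.20, 0.0430 and 0.0721), the latter with every KO array above every WT array. Of 15 measured mature adipocyte markers 4 rose, against 2.39% of all genes, and 0 fell, against 1.64%. Those that rose were the carbonic anhydrase Car3 (0.28), Retn, Adipoq and Acvr1c (0.32). Unblocked, the fit of varying genes called 5 of the 12 varying markers higher and 0 lower, against 14.9% and 12.2% of varying genes. Blocked, it called 5 higher and 1 lower, against 10.3% and 9.24%. Other markers were lower on average in KO without passing over all genes, namely leptin (Lep, -0.38, adjusted p = 0.244), Aqp7 (-0.10) and Lipe (-0.05), and Lep passed among varying genes with the block (0.0331) but not without it (0.0949). After quantile normalisation 3 of the 15 rose and 3 fell. Per array the mean of these 15 markers was 12.18 to 12.35 for KO (12.23 ± 0.08, SD, n = 4) and 12.02 to 12.14 for WT (12.08 ± 0.05). This higher level stood beside target genes of which many are adipocyte genes too, and its part in their differences was not tested. With any single array left out, each target or marker list had at most 2 called genes, and these need not be the same genes: without KO 4 the LXR list had 1 called higher and 0 lower.

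**Figure D5:**
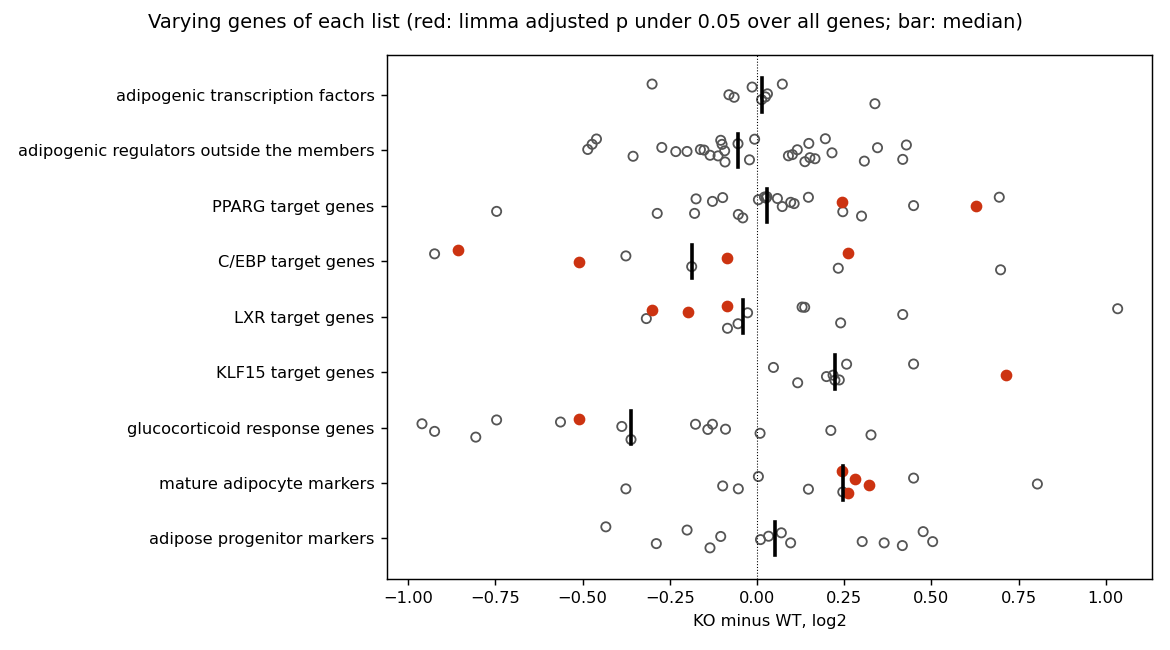
KO minus WT difference in log2 of the varying genes of each list, with red points for genes that passed limma over all genes and a bar for the median. The members hold no red point and centre near 0, whereas the KLF15 targets lie above 0 and most glucocorticoid response genes below it.

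Other genes followed single members across the arrays within genotypes, after removal of the genotype means. Over 8 arrays and 5172 other varying genes, Pparg was most like the coactivator Ncoa1 (Pearson r = 0.988), Trip12 (0.976) and Mafg (0.964). Cebpa was most like the ATP synthase subunit Atp5o (0.988), Phlda3 (0.985) and Nme7 (0.979), and Rxra most like the ligand Efna1 (0.984), Suox (0.930) and Ndufa13 (0.913). Among the members Pparg went with Nr1h3 (0.84) and against Zfp423 (-0.87), and Cebpa went with Ebf1 (0.76) and against Nr1h3 (-0.83). WT 3 was the highest WT array for Pparg (11.08) and Nr1h3 (8.69). It was the lowest for Cebpa (9.75), Ebf1 (9.26) and Zfp423 (8.22), and its part in these correlations was not tested. The SD of Pparg was 0.015 in KO and 0.052 in WT, and that of Nr1h3 was 0.014 and 0.029. The points share arrays and normalisation, and the genes named are the highest of all those searched.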

How the data were processed

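RNA from 8 mice, 4 KO and 4 WT, was measured on 3' expression arrays. The authors deposited log2 probe set values, a scale read from their range of 4.93 to 14.3. The submitters' processing notes list R 2.14.0. How background, normalisation and summarisation were handled is not given in the sources used here. Platform annotation named 1 gene for 34945 of 45101 probe sets; 64 control sets were left out of tests. KO was compared with WT in limma 3.58.1 (lmFit, eBayes; R 4.3.3), threshold 0.05, with exact permutation tests in scipy 1.17.1. Of 1 probe set per gene the brightest was used. The members, gene lists, SD limit of 0.01, alternatives and naming rule (all members, up to 4 genes of smallest p per list, the 3 most alike genes for Pparg and for the 3 members of largest absolute difference, which were Cebpa, Rxra and Pparg itself) were chosen with earlier results of these data known. Fabp4, Cd36, Abca1, Abcg1, Prodh, Bckdha, Lep, Aqp7 and Lipe were named outside that rule, after their values were seen. Same-numbered KO and WT arrays correlated at 0.189 to 0.486 in their deviations from the genotype means, so the numbers were treated as pairs by these data alone, not by the labels. KO 3 with WT 4 (0.364) and KO 4 with WT 3 (0.266) correlated more closely than KO 3 with WT 3 (0.189) and KO 4 with WT 4 (0.244), so numbers 3 and 4 are not told apart. The KO against WT fit was tested on simulated data, where the fit over 18193 genes recovered 18% of changes of 0.3 log2, 58% of 0.6, 88% of 1 and 94% of 1.5. Fitting only varying genes recovered 34% of changes of 0.3. The simulation changed 50 genes per size, all varying, with independent noise and no effect of replicate number. In the real data 733 genes were called, so recovery there can differ.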

Additional observations from a re-analysis of the deposited data

Results flagged for a closer look

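A single array stood well away from the remaining 3 of its genotype in 6 of 64 sets of values examined, and chance gives about 1 in 20. Ebf1 1448293_at was 9.14 in WT 3, against 9.84 to 9.93 in the other WT arrays. Ebf2 1449101_at was 7.56 in WT 1, against 7.10 to 7.17. The mean of the C/EBP targets was 10.12 in WT 4, above 9.998 to 10.02. The mean of the KLF15 targets was 9.72 in KO 1, above 9.41 to 9.46, and 9.14 in WT 2, below 9.29 to 9.31. The mean of the mature adipocyte markers was 12.35 in KO 1, above 12.18 to 12.20.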

How the results depend on the processing

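Over the 10 members and all alternatives, 164 of 178 differences kept their sign and their side of the threshold, 2 passed (Rxra) and 12 changed sign, all for Cebpd, Ebf1, Ebf2 and Klf15. Leaving out 1 array gave -0.13 to 0.13 for Cebpd, -0.14 to 0.12 for Ebf1 and -0.14 to 0.071 for Klf15. Ebf1 was -0.10 as the mean of its probe sets and -0.0067 with its most variable set. Ebf2 was 0.0026 after quantile normalisation. The cause was not tested. Called members were 1 (Rxra) in the fit of varying genes, unblocked or with the replicate block, and 0 in every other setting. Called member probe sets were 0 with the replicate block, with a block for the pair of number groups (1 and 2, 3 and 4), by Welch test and with any array left out, and 2 among varying sets without and with the replicate block. All genes called numbered 733, 0 with the replicate block, 493 with a block for the number groups, 1402 among varying genes (fewer genes tested), 9 by Welch test and 10 (without KO 3) to 253 (without KO 2) with 1 array left out. By Welch test 0 genes of any list passed. The alternatives for the list counts were chosen after seeing the data. Arrays give no read depth, and signal over background was not analysed here.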

Other observations

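The SD was larger in WT than in KO for 8 of the 10 members, and for 59.5% of the varying genes. WT 3 was the lowest of the 8 arrays for 3 of the members, Cebpa, Ebf1 and Zfp423.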
